A study of Mus musculus with 8 samples.

Results

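The 32 genes described here encode the enzymes that make cholesterol and the proteins that sense, move and export it. They were taken from a fixed list of symbols of the mevalonate and sterol pathway and of its SREBP and LXR control. The rule held no measured value, but the list was chosen with earlier results of these data known. They are 32 of the 55488 genes in each library's table, and all 32 were among the 16908 genes with enough counts to be tested. By role they fall into 8 genes of the mevalonate arm, 11 of the sterol arm, 5 of SREBP control, 3 of intracellular sterol transport and 5 of LXR control and efflux.

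The groups were dorsal skin of Tph1 knockout mice (4 libraries) and dorsal skin of wild type mice (4 libraries), all at 3 months of age. Tph1 encodes the tryptophan hydroxylase that makes serotonin outside the brain, so the comparison asks what its loss does to skin. The labels give no allele, background strain, sex or litter. They also leave it unsaid whether 1 mouse gave 1 library, so a p-value here speaks only to variation among 8 libraries, which may be partly technical. Library totals were 20971362 to 24463068 expected counts in knockout skin and 20531601 to 24678638 in wild type skin. Tph1 itself had 0 counts in each of the 4 knockout libraries, against 18, 0, 27 and 11 counts in the wild type libraries, so 1 wild type library also had none. The basal keratinocyte markers, which define epidermis, had a mean log2(CPM + 1), where CPM is the count scaled to its library's normalized size, of 9.72 to 10.4 in knockout libraries and 10.1 to 10.7 in wild type libraries.

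Cholesterol is built from acetyl-CoA. The mevalonate arm leads to farnesyl diphosphate, and the sterol arm turns farnesyl diphosphate into squalene, cyclizes it to lanosterol and trims lanosterol to cholesterol. When sterols in the endoplasmic reticulum run low, SCAP carries the SREBP factors to the Golgi for cleavage, and SREBP-2 in particular then switches on these enzymes together, while the INSIG proteins hold SCAP back when sterols are plentiful. When sterols are in excess, oxysterols activate the LXR receptors, which raise export through ABCA1 and ABCG1. In skin, keratinocytes make cholesterol for the barrier lipids of the stratum corneum, and sebaceous glands make sterols and other lipids for sebum.

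Knockout skin had less RNA of most cholesterol synthesis genes on average, but the knockout libraries differed widely among themselves in many of these genes, and no gene of the 32 passed the test. Of the 19 synthesis genes, 17 had a lower mean in the knockout libraries and 2 a higher one, with a median log2 fold change (knockout over wild type) of -0.29, against 0.03 over all genes tested. The SREBP control genes were nearer to no difference, with a median of -0.10 over 5 genes, and the LXR and efflux genes had a median of 0.17 over 5 genes. That LXR and efflux median was the value of 1 gene, Nr1h2. The 5 genes ran from -0.45 to 0.66, with 2 below 0 and 3 above, so they shared no direction. Transport genes had a median of -0.54 over 3 genes. Over all 32 genes the median was -0.19, with 24 log2 fold changes below 0 and 8 above, where 46.9% of all genes tested were below 0.

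edgeR's quasi-likelihood test called 0 of the 32 genes at an adjusted p under 0.05, where it called 0.651% of all genes tested (0.532% lower and 0.118% higher in knockout skin), and the smallest adjusted p among the 32 was 0.0879. At an unadjusted p under 0.05 it passed 11 of the 32, 9 of them lower and 2 higher in knockout skin, where 17.6% of all genes tested passed (9.37% lower and 8.26% higher). DESeq2, run as an alternative, called 7 of the 32, namely Mvk, Pmvk, Fdps, Ebp, Dhcr7, Npc2 and Mylip, where it called 5.82% of all genes tested. In 5 of the 32 all knockout libraries lay below all wild type libraries, where this held for 5.65% of all genes tested, and in 1 every knockout library lay above, where this held for 5.39%. The 5 were Mvk, Pmvk, Fdps, Ebp and Npc2, and the 1 was Mylip. In bulk skin, fewer cells of a type and less RNA per cell cannot be told apart.

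**Figure D1:**
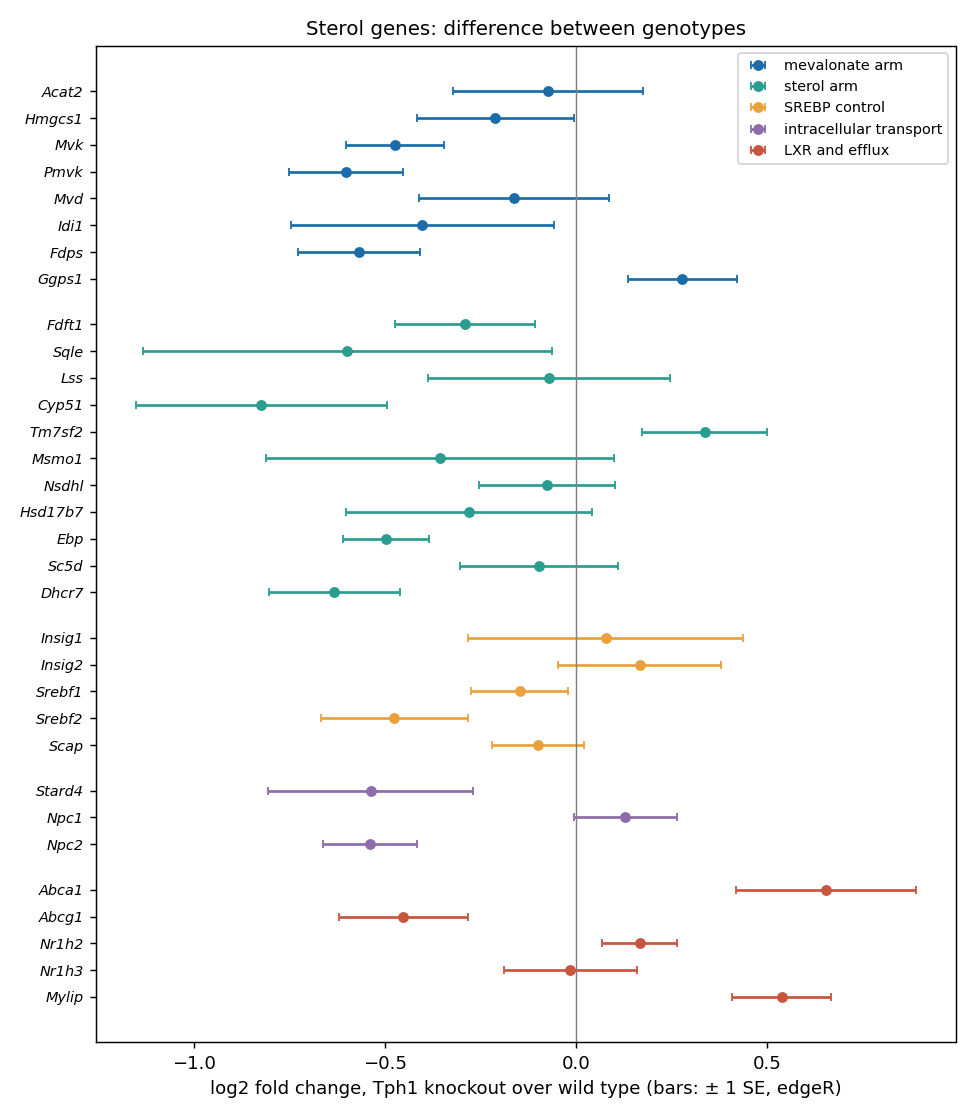
Log2 fold change of each of the 32 genes, Tph1 knockout over wild type, with bars of 1 SE from edgeR and colours for the 5 role groups. Of the 19 synthesis genes in the top 2 blocks, 17 lie left of 0, while Abca1 and Mylip lie furthest to the right at 0.66 and 0.54.

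The mevalonate arm had 7 of 8 genes with a lower mean in knockout skin and a median log2 fold change of -0.31. Mvk (ENSMUSG00000041939), mevalonate kinase, is on the plus strand of chromosome 5 from 114444269 to 114460591 in GRCm38. It had 24.6, 20.6, 25.7 and 22.8 CPM in knockout replicates 1 to 4, against 31.6, 38.1, 28.9 and 31.3 CPM in wild type replicates 1 to 4. The groups did not overlap, with means of 23.4 ± 2.23 CPM in knockout and 32.5 ± 3.94 CPM in wild type (SD, n = 4 each). The log2 fold change was -0.47 ± 0.13 (SE, edgeR adjusted p = 0.124).

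Pmvk (ENSMUSG00000027952), phosphomevalonate kinase, adds the next phosphate and is on the plus strand of chromosome 3 from 89454541 to 89469013. It had 17.5, 20.8, 26.1 and 25.4 CPM in knockout libraries, against 32.4, 38.2, 34.2 and 31.5 CPM in wild type libraries. The highest knockout library again lay below the lowest wild type library, and the log2 fold change was -0.60 ± 0.15 (SE, edgeR adjusted p = 0.104). Fdps (ENSMUSG00000059743), farnesyl diphosphate synthase, makes the branch point compound of the pathway and spans 89093588 to 89101959 of the same chromosome (minus strand). It had 63.9, 49.0, 86.2 and 69.4 CPM in knockout libraries, against 97.2, 98.0, 100.1 and 102.7 CPM in wild type libraries. The wild type libraries lay close together at 99.5 ± 2.42 CPM, while the knockout libraries spread over 67.1 ± 15.4 CPM (SD, n = 4 each). The log2 fold change was -0.57 ± 0.16 (SE, edgeR adjusted p = 0.136). Fdps had a count that was not whole in all 8 libraries, so its level also depends on how reads shared with similar sequences were divided.

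The remaining 5 genes of the arm overlapped between genotypes. Their log2 fold changes were -0.07 ± 0.25 for Acat2, the thiolase that joins the first acetyl-CoA units, and -0.21 ± 0.21 for Hmgcs1, HMG-CoA synthase (SE). They were -0.16 ± 0.25 for Mvd, mevalonate diphosphate decarboxylase, and -0.40 ± 0.34 for Idi1, isopentenyl diphosphate isomerase (SE). Ggps1, which takes farnesyl diphosphate away from sterols to make geranylgeranyl diphosphate for protein prenylation, was the 1 gene of the arm with a higher mean in knockout skin, at 0.28 ± 0.14 (SE, edgeR adjusted p = 0.340).

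The sterol arm had 10 of 11 genes with a lower mean in knockout skin and a median log2 fold change of -0.29. Ebp (ENSMUSG00000031168), the sterol isomerase that moves the double bond of the sterol ring, spans 8185329 to 8193512 of chromosome X (minus strand). It had 23.5, 21.6, 23.8 and 20.98 CPM in knockout libraries, against 30.4, 32.7, 35.0 and 28.7 CPM in wild type libraries. Its highest knockout library was only 1.14 times its lowest, and the groups did not overlap. Means were 22.5 ± 1.40 CPM in knockout and 31.7 ± 2.76 CPM in wild type (SD, n = 4 each), and the log2 fold change was -0.50 ± 0.11 (SE, edgeR adjusted p = 0.0879).

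Dhcr7 (ENSMUSG00000058454) encodes the reductase of the last step to cholesterol and is on the plus strand of chromosome 7 from 143823145 to 143848410, 97.2 Mb from Tph1. It had 43.5, 53.4, 74.7 and 57.6 CPM in knockout libraries, against 94.4, 73.3, 90.6 and 97.4 CPM in wild type libraries. Knockout replicate 3 lay just above wild type replicate 2, and in every other pair the knockout library was the lower. The log2 fold change was -0.63 ± 0.17 (SE, edgeR adjusted p = 0.124). Cyp51 (ENSMUSG00000001467), the lanosterol demethylase, had 26.5, 24.0, 70.4 and 42.3 CPM in knockout libraries, against 95.7, 56.1, 76.1 and 61.2 CPM in wild type libraries. Its log2 fold change of -0.82 ± 0.33 was the lowest of the 32 genes, and knockout replicate 3 stood within the wild type range (SE, edgeR adjusted p = 0.241). Cyp51 spans 4081145 to 4104746 of chromosome 5 (minus strand).

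**Figure D2:**
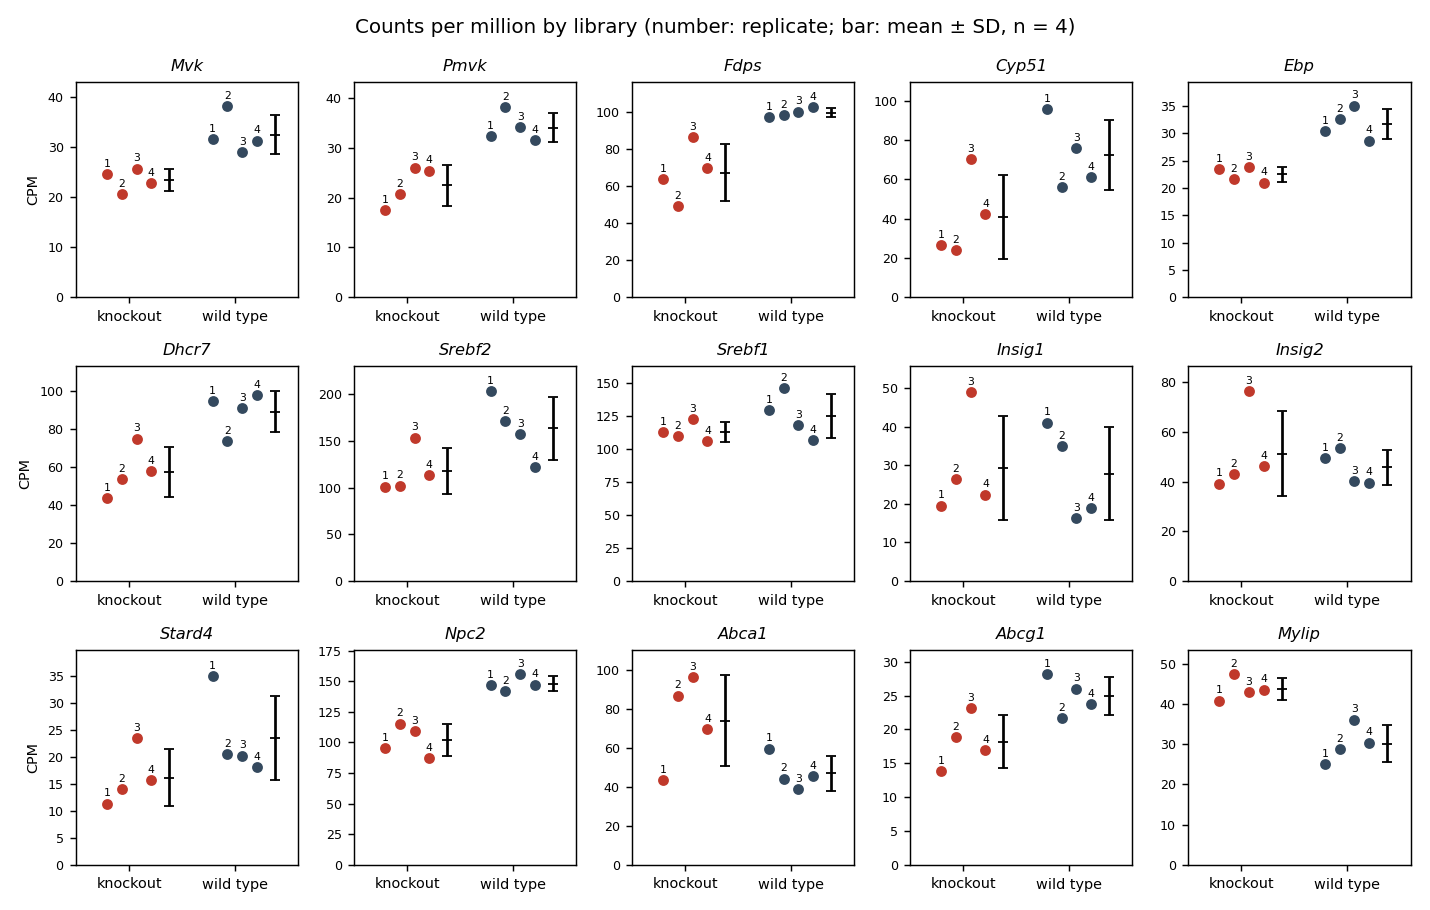
CPM of 15 genes in each library, with Tph1 knockout libraries left of wild type libraries, the replicate number at each point and bars for the mean ± SD (n = 4). Mvk, Pmvk, Fdps, Ebp and Npc2 are lower in every knockout library than in every wild type library and Mylip is higher, while in Cyp51 and Insig1 knockout replicate 3 stands well above the other knockout libraries.

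The other 8 sterol arm genes overlapped between genotypes. Sqle, squalene epoxidase and a rate-controlling step of the arm, had 12.4, 11.8, 59.7 and 23.7 CPM in knockout libraries, against 69.6, 41.7, 22.5 and 29.0 CPM in wild type libraries. Msmo1, a methylsterol oxidase, had 30.4, 32.9, 142.5 and 68.7 CPM in knockout libraries, against 121.5, 74.8, 91.0 and 64.3 CPM in wild type libraries. Both genes were picked after their values were seen, for their spread: the highest knockout library was 5.07 times the lowest for Sqle and 4.68 times for Msmo1. Log2 fold changes were -0.60 ± 0.54 for Sqle and -0.36 ± 0.46 for Msmo1 (SE), so the differences were close to their errors. Fdft1 (squalene synthase), Lss (lanosterol synthase), Nsdhl, Hsd17b7 and Sc5d ranged over log2 fold changes from -0.29 to -0.07, with edgeR adjusted p from 0.430 to 0.928. Tm7sf2, a sterol reductase, was the 1 gene of the arm with a higher mean in knockout skin, at 0.34 ± 0.16 (SE, edgeR adjusted p = 0.313).

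Some of these genes share exon sequence with a neighbour, and the library kit does not mark strand. Fdft1 shares 774 bases of exon with Ctsb on the opposite strand, a gene at 526 CPM on average, and Cyp51 shares 166 bases with Akap9 and Ggps1 257 bases with Arid4b in the same way. Tm7sf2 shares 532 bases with Vps51 on its own strand, and Fdps shares 1124 bases with Gm43738 on its own strand, a gene at 0 CPM on average. Reads from those stretches cannot be assigned by strand.

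On a scale per transcript length, the highest synthesis gene was Fdps, at a mean of 79.6 TPM (transcript abundance after scaling to length and library) in knockout and 119 TPM in wild type libraries. Msmo1 followed with 60.7 TPM in knockout and 78.4 TPM in wild type, and Hmgcs1 with 60.2 TPM in knockout and 69.5 TPM in wild type. Hsd17b7 was the lowest, at 5.76 TPM in knockout and 7.16 TPM in wild type. Summed over the 19 synthesis genes, the level was 318, 348, 818 and 449 TPM in knockout libraries, against 814, 628, 615 and 494 TPM in wild type libraries. Knockout replicates 1, 2 and 4 lay below every wild type library, and knockout replicate 3 lay above every one of them.

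The same knockout library was highest in most synthesis genes, while the order of the others varied between genes. Knockout replicate 3 was the highest knockout library in 17 of 19 synthesis genes, and replicate 4 in the other 2, Fdft1 and Tm7sf2. Knockout replicate 2 was the lowest in 13, replicate 1 in 4 and replicate 4 in 2. Set against wild type skin, 14 of 19 genes in knockout replicate 1 lay below every wild type library, as did 16 in replicate 2, 7 in replicate 4 and 4 in replicate 3. Over all genes tested, the share below every wild type library was 24.7% in knockout replicate 1, 18.5% in replicate 2, 24.7% in replicate 4 and 24.5% in replicate 3. The 4 synthesis genes so placed in replicate 3 were Mvk, Pmvk, Fdps and Ebp.

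Without knockout replicate 3, the synthesis median was -0.52 and edgeR still called 0 of the 32 genes, where it called 0.991% of the genes tested in that fit. In that comparison 11 of the 32 genes had all 3 remaining knockout libraries below the lowest wild type library, where 9.51% of all genes tested did, and 2 had all 3 above the highest, where 8.46% did. The 11 included 7 synthesis genes, the earlier 4 and Cyp51, Nsdhl and Dhcr7. The comparison was added after the data were seen. With wild type replicate 2 left out as well, edgeR called 1 of the 32, Dhcr7, at -0.88, where it called 0.985% of the genes tested in that fit. In Dhcr7 these were the 1 pair of libraries that overlapped between genotypes, so leaving both out widens its difference by itself. With knockout replicate 3 alone left out, Dhcr7 was not called (edgeR adjusted p = 0.0512).

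**Figure D3:**
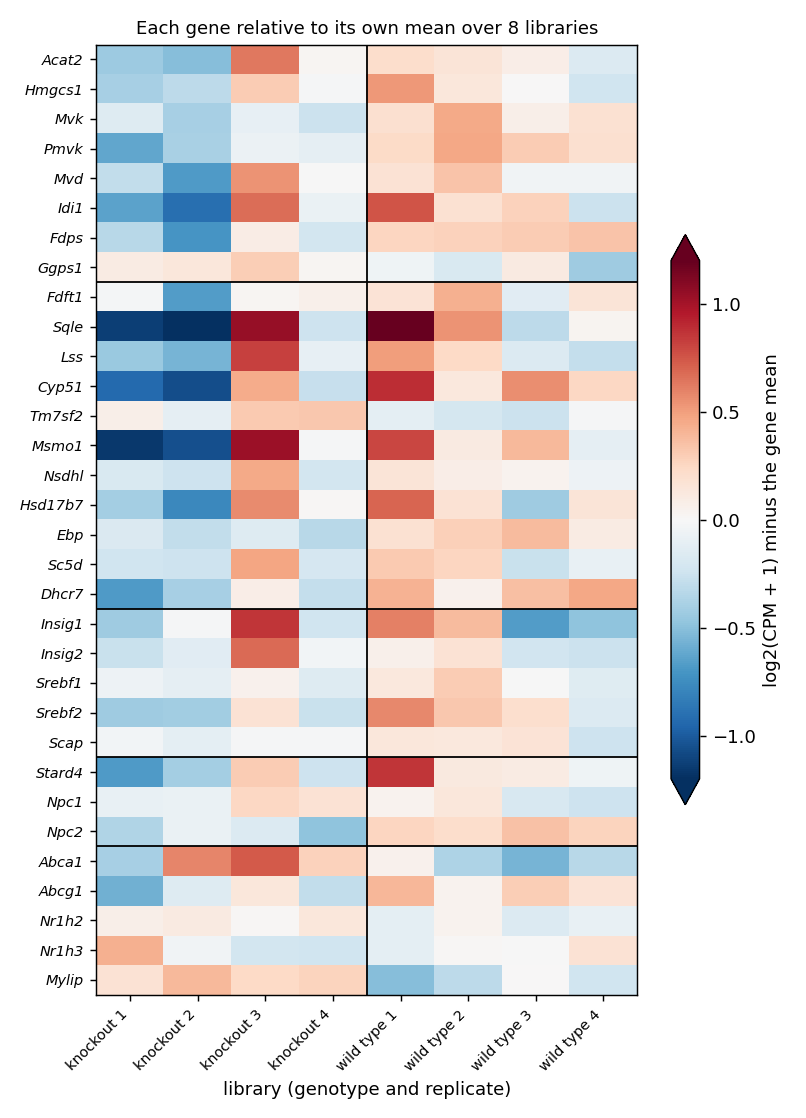
Log2(CPM + 1) of each gene minus the gene's own mean over 8 libraries, with Tph1 knockout libraries left of wild type libraries and lines between the 5 role groups (colours are capped at the ends of the scale). Knockout replicates 1 and 2 are blue over most of the 19 synthesis genes, knockout replicate 3 is red over most of them, and Mvk and Ebp are blue in all 4 knockout libraries.

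Several marker lists moved with the synthesis genes across these libraries, and their part in the result was not tested. Taking the level of a list as the mean log2(CPM + 1) of its tested genes, the synthesis genes were at 4.75, 4.63, 5.57 and 5.07 in knockout libraries, against 5.57, 5.38, 5.24 and 5.18 in wild type libraries. Sebaceous gland markers, 10 of 11 tested, were at 4.01, 4.10, 6.63 and 5.15 in knockout libraries, against 5.61, 5.13, 5.12 and 4.66 in wild type libraries, and edgeR called 0 of them. Knockout replicates 1 and 2 were thus lowest in both lists, and knockout replicate 3 was the highest library in sebaceous markers.

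Suprabasal keratinocyte markers, 12 of 12 tested, were at 7.69, 7.85, 9.07 and 8.52 in knockout libraries, against 9.78, 9.15, 8.98 and 9.19 in wild type libraries. All 12 had a lower mean in knockout skin, with a median log2 fold change of -1.05, and edgeR called 2 of them. With the suprabasal level of each library as a covariate, the synthesis median was 0.35 in place of -0.29, so its direction was not the same. The level itself differed between genotypes, with only knockout replicate 3 in the wild type range, so this fit separates level from genotype poorly. Of the 32 genes 12 changed sign in it, while Mvk (-0.39), Pmvk (-0.36), Fdps (-0.27) and Ebp (-0.52) stayed below 0. With the sebaceous level as a covariate it was -0.28 and edgeR called 3 of the 32 genes, Pmvk, Cyp51 and Dhcr7, where it called 1.94% of all genes tested. No tested gene of these 2 marker lists had 0 counts in a library, and Gal of the sebaceous list was too low to test.

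Lists that bear on handling or on other tissue also differed. Immediate early and heat shock genes, 16 of 16 tested, were centred on a log2 fold change of -1.63 (median), 15 lower and 1 higher in knockout skin. Of them 14 were lower at an unadjusted p under 0.05, and edgeR called 1. Their levels were 7.10, 7.71, 6.90 and 6.66 in knockout libraries, against 8.88, 7.25, 9.27 and 8.55 in wild type libraries. Skeletal muscle markers, 14 of 14 tested and 0 called, all had a higher mean in knockout skin, with a median of 0.47 and levels of 11.7 to 12.6 in knockout libraries and 9.70 to 12.3 in wild type libraries. With the immediate early and heat shock level as a covariate the median of the mevalonate arm was -0.61. Mitochondrial transcripts made up 7.503% to 10.7% of counts in knockout libraries and 4.19% to 8.40% in wild type libraries.

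**Figure D4:**
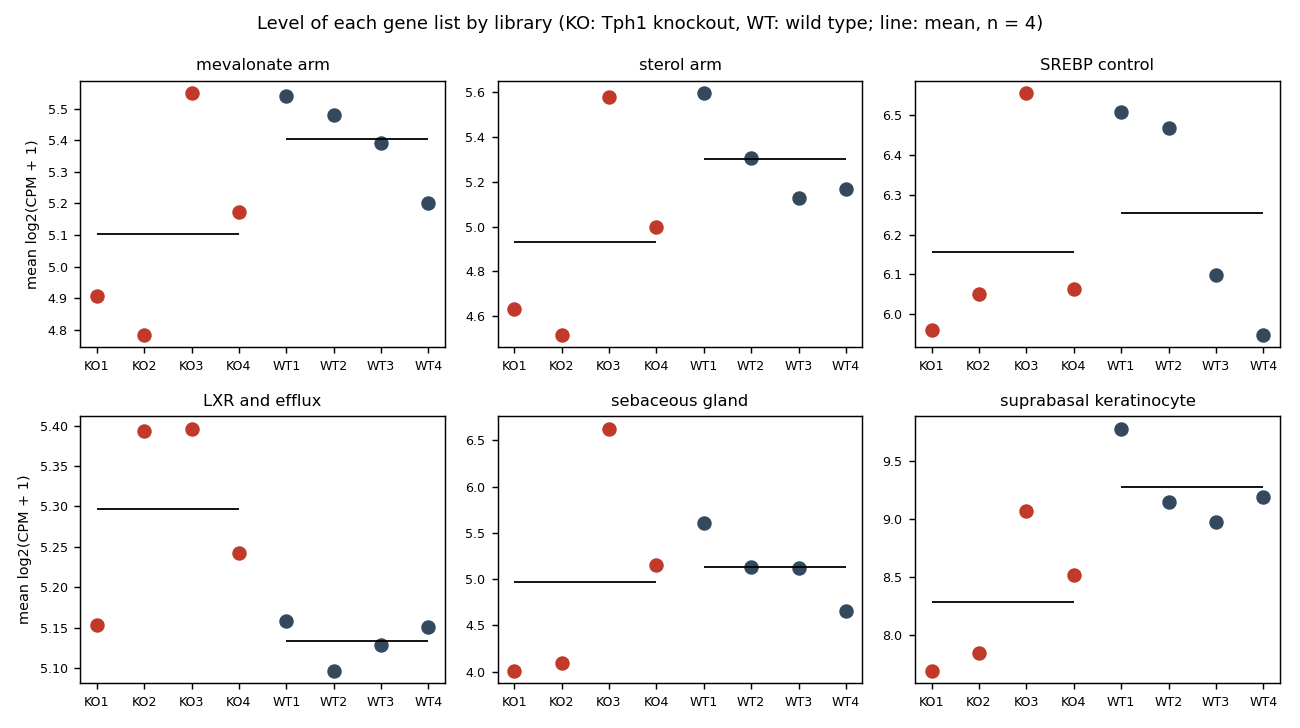
Mean log2(CPM + 1) of 4 role groups and 2 marker lists in each library, knockout libraries (KO) left of wild type libraries (WT), with a line at the group mean (n = 4). The mevalonate and sterol arms, SREBP control, the sebaceous gland markers and suprabasal keratinocyte markers share part of their order among the knockout libraries. They are lowest in replicates 1 and 2 and highest in replicate 3. The LXR and efflux level is above every wild type library in knockout replicates 2, 3 and 4.

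The promoters are shown because the synthesis genes varied together between libraries and SREBP-2 acts through a short element in many of them. Whether SREBP-2 has a part in that shared variation was not tested. The windows are the 250 bases before the start of transcription in RefSeq (GRCm38.p6), read along the gene's strand. The set of windows used covered 26 of the 32 genes, with 35 windows in all. It held none for Fdps, Npc1, Fdft1, Stard4, Abcg1 and Sqle, so their promoters were not searched. Capitals mark TCACNCCA, a spelling of the sterol regulatory element, and CCAAT, the box bound by the partner factor NF-Y, each searched on both strands, so that CCAAT on the other strand reads ATTGG. The positions are chr13:119690101-119690350 (plus strand) for Hmgcs1, chr8:64733579-64733828 (minus strand) for Msmo1, chr15:82147019-82147268 (plus strand) for Srebf2, chr5:4104698-4104947 (minus strand) for Cyp51 and chrX:8193513-8193762 (minus strand) for Ebp.
Hmgcs1: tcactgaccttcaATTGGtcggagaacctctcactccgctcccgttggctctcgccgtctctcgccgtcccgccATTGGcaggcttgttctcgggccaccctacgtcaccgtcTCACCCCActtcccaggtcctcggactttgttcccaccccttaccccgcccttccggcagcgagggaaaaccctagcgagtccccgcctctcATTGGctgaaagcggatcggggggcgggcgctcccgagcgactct
Msmo1: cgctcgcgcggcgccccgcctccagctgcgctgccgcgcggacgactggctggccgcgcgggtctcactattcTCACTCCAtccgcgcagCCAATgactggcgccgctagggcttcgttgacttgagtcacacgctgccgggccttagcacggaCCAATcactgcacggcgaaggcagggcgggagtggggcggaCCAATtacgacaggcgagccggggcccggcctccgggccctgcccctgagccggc
Srebf2: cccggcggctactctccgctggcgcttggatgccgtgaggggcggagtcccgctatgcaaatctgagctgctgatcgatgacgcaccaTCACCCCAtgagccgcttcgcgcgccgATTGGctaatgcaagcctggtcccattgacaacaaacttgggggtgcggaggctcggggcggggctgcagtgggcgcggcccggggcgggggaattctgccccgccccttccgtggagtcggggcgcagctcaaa
Cyp51: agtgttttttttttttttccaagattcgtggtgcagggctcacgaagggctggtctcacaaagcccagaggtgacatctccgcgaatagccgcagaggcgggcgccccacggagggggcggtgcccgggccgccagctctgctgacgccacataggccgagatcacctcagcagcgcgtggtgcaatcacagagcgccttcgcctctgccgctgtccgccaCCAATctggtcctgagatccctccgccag
Ebp: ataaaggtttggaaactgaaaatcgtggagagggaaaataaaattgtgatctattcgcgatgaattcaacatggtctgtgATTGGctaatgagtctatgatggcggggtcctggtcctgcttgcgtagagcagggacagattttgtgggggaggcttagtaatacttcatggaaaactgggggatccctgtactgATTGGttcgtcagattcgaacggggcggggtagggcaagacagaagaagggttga

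TCACNCCA was found in 3 of the 35 windows of these genes (8.57%), and in 3.67% of all 32851 windows of the set. The matches were at base -137 of Hmgcs1, -177 of Msmo1 and -162 of Srebf2, counted from the start of transcription. CCAAT was found in 22 of the 35 windows (62.9%) and in 33.8% of all windows. Cyp51 and Ebp hold CCAAT but not TCACNCCA in these windows. A match is a run of letters only, and other spellings of the element were not searched. RefSeq and GENCODE place some starts differently. The GENCODE gene covers 214 of the 250 bases of the Msmo1 window, its TCACNCCA included, 88 bases of the Srebf2 window, without its TCACNCCA, and 49 bases of the Cyp51 window, while the GENCODE start of Hmgcs1 lies downstream of the RefSeq start.

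Among the SREBP control genes, Srebf2, which encodes the SREBP-2 factor itself, had the lowest log2 fold change. It had 101.1, 102, 154 and 113 CPM in knockout libraries, against 204, 171, 158 and 122 CPM in wild type libraries. Knockout replicate 3 lay above wild type replicate 4, and the other 3 knockout libraries lay below every wild type library. Means were 118 ± 24.7 CPM in knockout and 164 ± 34.0 CPM in wild type (SD, n = 4 each), and the log2 fold change was -0.48 ± 0.19 (SE, edgeR adjusted p = 0.246). Srebf1, whose SREBP-1 products drive mainly fatty acid synthesis, had 113, 110, 123 and 106 CPM in knockout libraries, against 130, 146, 118 and 107 CPM in wild type libraries. Its groups overlapped, and the log2 fold change was -0.15 ± 0.13 (SE, edgeR adjusted p = 0.563).

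Insig1, which retains SCAP in the endoplasmic reticulum and is itself an SREBP target, had 19.5, 26.5, 49.0 and 22.4 CPM in knockout libraries, against 41.1, 35.0, 16.4 and 18.8 CPM in wild type libraries. Both genotypes held high and low libraries, and the log2 fold change was 0.08 ± 0.36 (SE, edgeR adjusted p = 0.932). Insig2, its relative, had 39.2, 43.1, 76.5 and 46.3 CPM in knockout libraries, against 49.5, 53.5, 40.1 and 39.6 CPM in wild type libraries. Knockout replicate 3 stood above all other libraries, and the log2 fold change was 0.17 ± 0.21 (SE, edgeR adjusted p = 0.709). Scap, the sterol sensing escort, was at -0.10 ± 0.12 (SE, edgeR adjusted p = 0.690). Knockout replicate 3 was the highest knockout library in all 5 control genes, as in most synthesis genes. Without it the log2 fold changes were -0.29 for Insig1 and -0.09 for Insig2, each below 0 in place of above.

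The 3 intracellular transport genes did not share a direction. Npc2 (ENSMUSG00000021242), the soluble lysosomal protein that hands cholesterol to the membrane protein NPC1, spans 84754562 to 84773152 of chromosome 12 (minus strand). It had 95.3, 115, 109 and 87.2 CPM in knockout libraries, against 147, 142, 156 and 147 CPM in wild type libraries. The groups did not overlap, and knockout replicate 3 was within the range of the other knockout libraries. Means were 102 ± 12.9 CPM in knockout and 148 ± 5.81 CPM in wild type (SD, n = 4 each), and the log2 fold change was -0.54 ± 0.12 (SE, edgeR adjusted p = 0.0879).

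Npc1, its partner, was at 0.13 ± 0.14 (SE, edgeR adjusted p = 0.639) and shares 511 bases of exon with Rmc1 on the opposite strand. Stard4, a cytosolic sterol carrier and SREBP-2 target, had 11.4, 14.03, 23.6 and 15.8 CPM in knockout libraries, against 35.1, 20.6, 20.3 and 18.1 CPM in wild type libraries. Its log2 fold change was -0.54 ± 0.27 (SE, edgeR adjusted p = 0.327), and without wild type replicate 1 the median of the 3 transport genes was -0.28 in place of -0.54. Macrophage markers, of a cell type rich in lysosomes, had a median log2 fold change of -0.52 over 10 tested genes, close to that of Npc2. Of them 8 were lower and 2 higher in knockout skin, 5 lower and 1 higher at an unadjusted p under 0.05, and edgeR called 0. Their levels were 4.52, 4.40, 5.34 and 4.15 in knockout libraries, against 5.32, 4.91, 4.68 and 5.01 in wild type libraries. Knockout replicates 1, 2 and 4 thus lay below every wild type library. Replicate 3 lay above every one in these markers, while in Npc2 it lay below every one. No marker was at 0 counts in a library, and the part of these cells in the Npc2 result was not tested.

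The LXR and efflux genes held both of the 2 genes of the 32 with an unadjusted p under 0.05 and a higher mean in knockout skin. Mylip (ENSMUSG00000038175), an LXR-induced ubiquitin ligase that marks lipoprotein receptors for breakdown, is on the plus strand of chromosome 13 from 45389742 to 45412022. It had 40.9, 47.5, 42.9 and 43.6 CPM in knockout libraries, against 25.1, 28.8, 36.1 and 30.4 CPM in wild type libraries. Every knockout library lay above every wild type library, with means of 43.7 ± 2.76 CPM in knockout and 30.1 ± 4.60 CPM in wild type (SD, n = 4 each). The log2 fold change was 0.54 ± 0.13 (SE, edgeR adjusted p = 0.0980).

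Abca1, which exports cholesterol to lipid-poor apolipoprotein, had 43.4, 86.7, 96.2 and 69.5 CPM in knockout libraries, against 59.6, 44.2, 38.7 and 45.4 CPM in wild type libraries. Knockout replicates 2, 3 and 4 lay above every wild type library, while replicate 1 lay within the wild type range. The log2 fold change was 0.66 ± 0.24 (SE, edgeR adjusted p = 0.210). Abcg1, which exports cholesterol to lipoprotein particles and is likewise induced by LXR, had the opposite sign. It had 13.8, 18.8, 23.2 and 16.9 CPM in knockout libraries, against 28.1, 21.6, 26.0 and 23.7 CPM in wild type libraries. The difference on the log2 scale was -0.45 ± 0.17 (SE, edgeR adjusted p = 0.220), and only knockout replicate 3 reached into the wild type range.

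The receptors had log2 fold changes nearer to 0, a difference from the exporters that was not tested. Nr1h2, encoding LXR beta, was at 0.17 ± 0.10 (SE, edgeR adjusted p = 0.398) and lies 2.09 Mb from Tph1 on chromosome 7. Nr1h3, encoding LXR alpha, was at -0.02 ± 0.17 (SE, edgeR adjusted p = 0.976). Per transcript length, Nr1h2 was the more abundant, at 73.7 TPM in knockout and 64.5 TPM in wild type, against 14.3 TPM in knockout and 13.7 TPM in wild type for Nr1h3. No window of the 26 genes held AGGTCA repeated directly after 4 bases of any kind on either strand, a strict spelling of the LXR response element found in 5 of all 32851 windows, which says only that these letters are not in these stretches.

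Genes of 6 related lists were centred near 0 when pooled. Besides sterol handling, the lists covered isoprenoid branches and SREBP-1 fatty acid targets. Over the 6 lists, with 76 of 79 genes tested, the median log2 fold change was 0.02, with 36 genes below 0 and 40 above. Single list medians ran from -0.22 (oxysterol and sterol modification, 6 tested) to 0.05 (SREBP processing and sterol sensing, 10 tested). In all, edgeR called 1 gene, where it called 0.651% of all genes tested. At an unadjusted p under 0.05, 3 were lower and 3 higher in knockout skin, where 9.37% of all genes tested were lower and 8.26% higher. The 1 called gene was Sult2b1, the sulfotransferase that makes cholesterol sulfate in epidermis, which lies 0.860 Mb from Tph1. It had 16.1, 15.5, 22.4 and 16.3 CPM in knockout libraries, against 30.0, 28.9, 35.2 and 32.3 CPM in wild type libraries. Sult2b1 fell by 0.85 ± 0.15 on the log2 scale in knockout skin (SE, edgeR adjusted p = 0.0432), and the groups did not overlap. Whether its position near Tph1 bears on this difference was not tested. With 1 library left out at a time its adjusted p ran from 0.0165 to 0.200, under the threshold only without knockout replicate 3. It passed in 6 of all 18 alternatives, and with the suprabasal keratinocyte level as a covariate it was at -0.65 (SE 0.19, edgeR adjusted p = 0.0885).

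The other oxysterol and sterol modification genes did not pass. Ch25h, cholesterol 25-hydroxylase, was at 0.681 ± 0.253 CPM in knockout and 2.08 ± 0.941 CPM in wild type (SD, n = 4 each), with no overlap between genotypes and an edgeR adjusted p of 0.133. Cyp27a1, the sterol 27-hydroxylase, was at 0.46 ± 0.22 (SE). Among 10 tested genes of SREBP processing and sterol sensing, 0 were called, and the 3 with the smallest p were Mbtps2, the protease of the last SREBP cleavage, at 0.40 ± 0.17, Tmem97, a sterol-regulated membrane protein, at -0.49 ± 0.22, and Erlin1 at -0.27 ± 0.13 (SE). Among 18 genes of sterol transport and storage, 0 were called, with Gramd1a at 0.18 ± 0.10, Osbpl2 at 0.17 ± 0.10 and Stard5 at 0.31 ± 0.21 (SE). Among 13 LXR partners and targets, 0 were called, with Abca2 at 0.37 ± 0.16 and the phospholipid transfer protein Pltp at -0.53 ± 0.24 (SE).

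**Figure D5:**
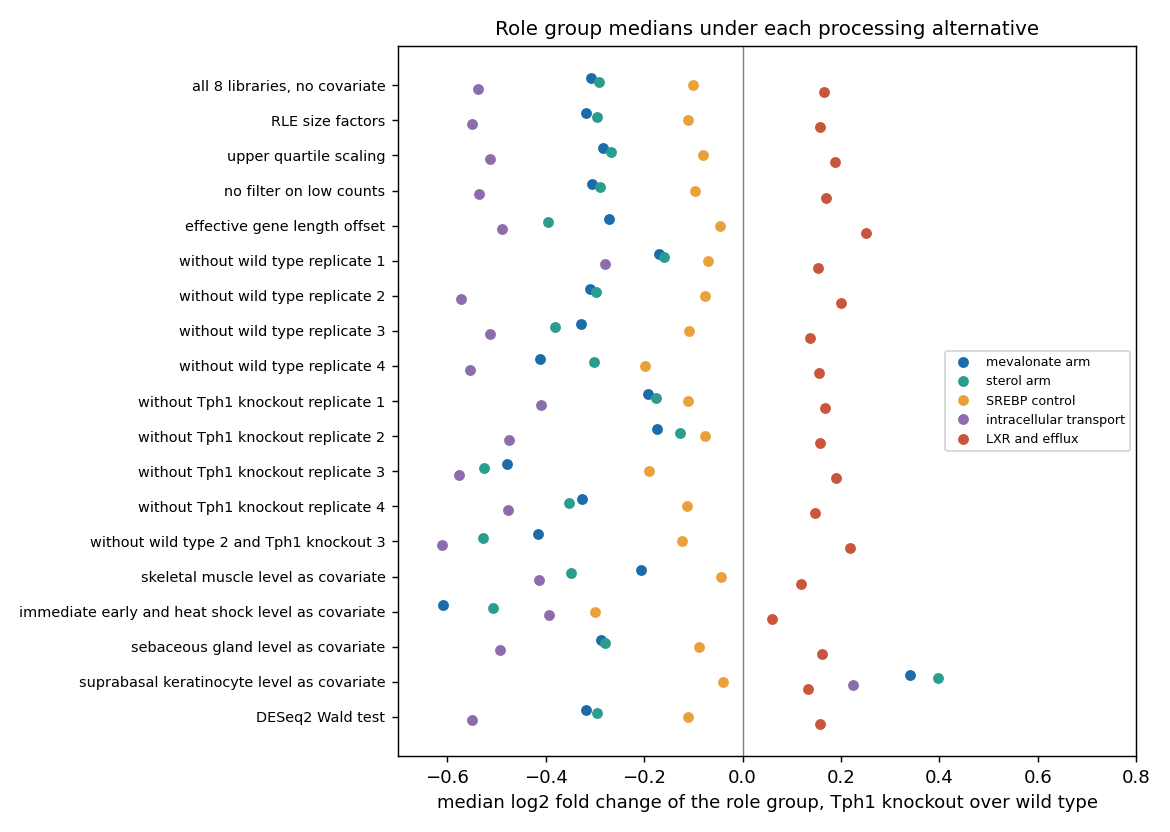
Median log2 fold change, Tph1 knockout over wild type, of the 5 role groups with all 8 libraries and under each of 18 alternative settings. The mevalonate and sterol arm medians lie below 0 in every setting shown but one, the suprabasal keratinocyte level as a covariate, where they are 0.34 and 0.40, and the LXR and efflux median lies above 0 in every setting shown. With all 8 libraries the LXR and efflux median is the value of Nr1h2 alone, and 2 of the 5 genes of that group lie below 0.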

How the data were processed

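Bulk RNA-seq of 8 dorsal skin libraries was used. Per the labels' protocols, RNA came from the RNeasy Mini kit (Qiagen) and library preparation used the NEBNext Ultra RNA kit. Strand is not marked by this kit. GRCm38, RSEM 1.31, STAR 2.7.6a, DESeq and DESeq2 are listed in the submitters' processing notes without their roles. The annotation was Ensembl release 101, per the labels. The deposited RSEM tables give expected counts per gene, which are not normalized, and 10.7% to 11.5% of the genes per library had fractional values. Of the 32 genes, 22 had whole counts in every library. The deposited TPM values, scaled for length and depth by RSEM per the file headers, were used for levels between genes. The deposited FPKM values entered no test. Effective lengths, per the file headers, entered 1 alternative. The authors' deposited matrix holds a normalized signal for 17382 genes, named in the labels as DESeq2-normalized. The sign of the log2 ratio of genotype means in it was the same as in edgeR for 30 of the 32 genes, the exceptions being Npc1 and Nr1h3. Sizes could differ: Lss was at -0.44 in that matrix, against -0.07 in edgeR and -0.43 in edgeR with the effective length offset.

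Expected counts were rounded and tested in edgeR 4.0.16 (R 4.3.3), with filterByExpr (minimum count 10, minimum total 15), TMM scaling and the robust quasi-likelihood F test, genotype being the only term. P-values were adjusted by Benjamini-Hochberg over 16908 genes, and a gene was called at an adjusted p under 0.05. SE was taken as |log2 fold change|/sqrt(F). The procedure was tested on simulated data. The 32 genes held 192 to 5568 counts per library. Replicates are numbered in the order of the records. The authors' matrix named 17354 identifiers, a reference name table named 37798, and 336 had no symbol. Coordinates are GENCODE M21 (GRCm38). Of the related gene lists, 3 symbols matched no identifier.

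The 32 genes, the role groups and the related and marker lists were chosen with earlier results of these data known. By rule, full values are given for genes with an unadjusted p under 0.05, for up to 2 genes with the smallest p per role and for Srebf1, Srebf2, Insig1 and Insig2, and the 3 smallest p of each related list are named. Of the genes so named, 1 is not reported here. Alternatives covered scaling, filtering, gene length, each library left out, wild type replicate 2 and knockout replicate 3 left out together, 4 marker levels as covariates and DESeq2 1.42.0.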

Additional observations from a re-analysis of the deposited data

Results flagged for a closer look

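In 5 of the 64 sets of 4 libraries (32 genes in each genotype), 1 library stood further from the others than Dixon's 95% criterion allows for the gap over the range. Chance alone flags about 1 in 20 such sets. In knockout skin these were Fdft1 in replicate 2, low at 53.3 CPM, and Nsdhl and Sc5d in replicate 3, high at 28.2 CPM and 42.5 CPM. In wild type skin they were Scap in replicate 4, low at 82.9 CPM, and Stard4 in replicate 1, high at 35.1 CPM. The 2 high values of knockout replicate 3 belong to the library that was also highest in sebaceous gland markers, at a level of 6.63.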

How the results depend on the processing

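No paired analysis was possible because the labels give the libraries no replicate numbers shared between genotypes. The count of called genes among the 32 was 0 in all but 4 of 18 alternatives: 7 with DESeq2, 3 with the sebaceous covariate (Cyp51 at -0.85), 1 with the suprabasal covariate (Abca1 at 1.17) and 1 with wild type replicate 2 and knockout replicate 3 both left out (Dhcr7 at -0.88). Over all genes, 110 were called, and 984 with DESeq2, 702 with the suprabasal, 328 with the sebaceous, 30 with the muscle and 6 with the immediate early and heat shock covariate, 167 with both libraries left out and 8 to 170 with 1 library left out. The count at an unadjusted p under 0.05 was 11, 8 to 14 with 1 library left out and 7 with the immediate early and heat shock covariate. Genes whose groups do not overlap numbered 6, 6 to 13 with 1 library left out and 13 with both left out. Over all genes tested, such genes also became more frequent without knockout replicate 3, by the shares given in the Results. The rise among the 32 is thus not by itself a stronger result. The unadjusted counts of the alternatives are given without a share over all genes. So are the non-overlap counts with both libraries, or any library other than knockout replicate 3, left out. Such counts cannot be read as results about the 32. Among the related genes 1 was called, 5 with the suprabasal covariate, Sult2b1 not among them, 2 with DESeq2, 0 with upper quartile scaling, the length offset and the muscle and immediate early covariates, and 0 to 1 with 1 library left out.

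Medians turned positive with the suprabasal covariate, at 0.35 for synthesis, 0.34 for the mevalonate arm, 0.40 for the sterol arm, 0.23 for transport and 0.31 for all 32. With the immediate early and heat shock covariate the mevalonate median was -0.61 and the LXR and efflux median 0.059. With 1 library left out, the synthesis median ran from -0.52 to -0.14 and the transport median from -0.58 to -0.28. The cause of these differences was not tested.

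Single genes changed sign as follows. With the suprabasal covariate: Acat2 0.54, Hmgcs1 0.33, Mvd 0.40, Idi1 0.50, Sqle 0.90, Lss 0.77, Cyp51 0.036, Msmo1 0.78, Nsdhl 0.29, Hsd17b7 0.64, Sc5d 0.40 and Stard4 0.23. With the immediate early and heat shock covariate: Insig1 -0.30, Insig2 -0.13, Npc1 -0.11 and Nr1h3 0.019. Acat2 was at 0.0038 with the muscle covariate, and Nr1h3 was at 0.0058 under upper quartile scaling and 0.13 with the length offset. With both libraries left out: Insig1 -0.18, Insig2 -0.022 and Nr1h3 0.045. With 1 library left out, log2 fold changes crossed 0 in 6 genes: Acat2 (-0.38 to 0.069), Mvd (-0.44 to 0.0078), Lss (-0.48 to 0.095), Insig1 (-0.29 to 0.33), Insig2 (-0.091 to 0.27) and Nr1h3 (-0.20 to 0.064). Of the related genes named, Pdss2 was at -0.14 with the immediate early and heat shock covariate, Acaca at 0.22 with the suprabasal covariate, and Elovl5 at -0.30 with both libraries left out and -0.32 to 1.15 with 1 left out.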

Other observations

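Isoprenoid branch genes, which carry farnesyl and geranylgeranyl groups to proteins and to coenzyme Q and dolichol, had a median log2 fold change of -0.03 over 15 tested genes, and edgeR called 0 of them. The 3 with the smallest p were Rce1, a protease of prenylated proteins, at -0.38 ± 0.15, Pggt1b, a subunit of an enzyme that prenylates proteins, at -0.18 ± 0.11, and Pdss2 at 0.40 ± 0.25 (SE).

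The SREBP-1 fatty acid targets had a median of 0.01 over 14 tested genes, with 0 called. Thrsp was at -0.47 ± 0.27, Elovl5, a fatty acid elongase, at 0.86 ± 0.61 and Acaca, acetyl-CoA carboxylase, at -0.20 ± 0.19 (SE). Without knockout replicate 3 the value of Elovl5 was -0.32. Their level, as mean log2(CPM + 1), was 5.80, 5.99, 6.98 and 6.21 in knockout libraries, against 6.54, 6.48, 6.02 and 6.19 in wild type libraries. Knockout replicate 3 was the highest library here too, and knockout replicates 1 and 2 were the lowest.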
